A study of Mus musculus with 6 samples.

Results

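The genes described here are the ligands and receptors of a pair of chemokine axes, measured in tumours grown under the skin of lactating and control mice. They are Cxcl9, Cxcl10 and Cxcl11 with their receptor gene Cxcr3, and Cxcl16 with its receptor gene Cxcr6. They were found by symbol among the probe sets that name a single gene. All 6 of 18194 named genes were present, with 10 probe sets among 34958 single-gene probe sets. KPC1199 tumour cells were injected subcutaneously into the back, giving what the labels call a PDAC (pancreatic ductal adenocarcinoma) xenograft, and 3 tumours of lactation mice were compared with 3 of control mice. Injection in the lactation group fell in pregnancy or at the onset of nursing, without a label for each mouse. All mice were killed at the same age, 20 days after injection. The sources used here give neither the host strain nor the reproductive history of the controls. The labels call the tumours biological replicates without naming the mouse behind each, so p-values measure the spread between these tumours.

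Chemokines are small secreted proteins that draw cells along a gradient through receptors coupled to G proteins. CXCL9, CXCL10 and CXCL11 are made by macrophages, dendritic cells, endothelium, fibroblasts and epithelium in response to interferons, above all interferon gamma, and attract CXCR3-bearing activated T cells and natural killer cells. CXCL16 differs in being made as a membrane-anchored protein of macrophages, dendritic cells and epithelium, from which proteases release a soluble form. Its receptor CXCR6 is carried by effector and resident memory T cells, natural killer T cells and innate lymphoid cells. In tumours these axes are studied as routes by which lymphocytes enter and stay.

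Cxcl9 and Cxcl10 lie on chromosome 5, with only Art3 listed between their starts in the RefSeq gene table of GRCm38.p6, and Cxcl11 is the next entry after Cxcl10. Art3 overlaps Cxcl10 and Cxcl11 in that table. The same table, made from the C57BL/6J strain, lists Cxcl11 as a transcribed pseudogene, so its transcript need not stand for a protein in every mouse strain. Cxcr3 lies on chromosome X, Cxcl16 on chromosome 11 and Cxcr6 on chromosome 9. The table also lists Zmynd15 as overlapping Cxcl16 and Fyco1 as overlapping Cxcr6. Promoter sequences from RefSeq were matched for 4 of the 6 genes, Cxcl9, Cxcl10, Cxcr3 and Cxcr6. The 250 bases before the start of Cxcl9 (GRCm38.p6 chr5:92328080-92328329, minus strand) and Cxcl10 (GRCm38.p6 chr5:92348890-92349139, minus strand) are shown because these ligands had the widest spread in signal units between tumours. Capitals mark matches to the motifs named after the sequences.
Cxcl9: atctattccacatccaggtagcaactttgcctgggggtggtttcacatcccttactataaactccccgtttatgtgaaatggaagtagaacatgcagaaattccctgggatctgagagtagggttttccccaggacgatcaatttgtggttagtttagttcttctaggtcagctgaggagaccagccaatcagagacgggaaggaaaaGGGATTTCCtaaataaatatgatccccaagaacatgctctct
Cxcl10: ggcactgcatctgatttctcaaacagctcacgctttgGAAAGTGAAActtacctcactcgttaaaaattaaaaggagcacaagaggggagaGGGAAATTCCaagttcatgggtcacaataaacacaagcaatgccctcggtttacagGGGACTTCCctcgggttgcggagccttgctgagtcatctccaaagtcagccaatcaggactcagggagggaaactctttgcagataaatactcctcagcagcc
Motifs were searched on both strands. The interferon-stimulated response element (GAAA, any 2 bases, then GAAA), which binds interferon regulatory factors, had 1 match in Cxcl10, 213 to 204 bases before the start, and is held by 2.98% of 32851 promoter entries of the same length. The NF-kB motif (GGGA, any 2 bases, then TTCC) had 1 match in Cxcl10, 159 to 150 bases before the start, and is held by 1.21% of entries. The shorter form GGGANTTCC, added after the sequences were seen, had 1 match in each, at 42 to 34 bases before the start of Cxcl9 and 103 to 95 before that of Cxcl10, and is held by 1.43%. No motif match overlapped another. The gamma-activated site TTCNNNGAA, held by 7.02%, had 0 matches in these windows. The Cxcr3 and Cxcr6 windows had 0 matches to all 4 motifs. A match describes letters only and was not tied to any factor.

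None of the 6 genes differed between lactation and control beyond the spread of 3 tumours a group. Their log2 differences, lactation minus control on the log2(signal + 16) scale, ran from -0.31 for Cxcr3 to 0.35 for Cxcl10, and 2 of 6 were positive, where 48.3% of tested genes were. Signal is the linear MAS5 value of a probe set, and each gene was read from its brightest one. In limma the Benjamini-Hochberg adjusted p was 1 for each. Of 11622 genes tested, 0 (0.0%) passed an adjusted p of 0.05. An unadjusted p under 0.05 was found for 264 (2.27%), with 1.51% of genes higher and 0.766% lower in lactation, and for none of the 6. Values of the groups overlapped for all 6, where 6.91% of tested genes had groups that did not overlap, 3.72% with lactation higher and 3.19% lower. Cxcl9 and Cxcl10 were highest in the same tumour and lowest in the same tumour, one from each group, and by their brightest probe sets Cxcl16 and Cxcr6 ranked the 6 tumours alike. Their second probe sets gave other orders, and the correlation of Cxcl16 with Cxcr6 passed the adjusted test by Pearson's r alone (adjusted p = 0.035 against 0.069 by rank) and not with arrays centred on their medians (adjusted p = 0.1).

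Cxcl9, the CXCR3 ligand most closely tied to interferon gamma, had signals of 4905, 8574 and 7008 in lactation replicates 1 to 3 and 4893, 7744 and 5623 in control replicates 1 to 3. Its probe set lay between the 97.1 and 98.7 percentile of all probe sets on its array. Lactation replicate 2 was highest and control replicate 1 lowest, and lactation replicate 1 was close to the lowest control. Means were 6829 ± 1841 (SD, n = 3) and 6086 ± 1481 (SD, n = 3). The log2 difference was 0.16 (standard error 0.24, 95% interval -0.40 to 0.71, limma adjusted p = 1). Without lactation replicate 2 it was -0.027, and without lactation replicate 1 it was 0.375. A second probe set ranked the 6 tumours in the same order but spread them further, at 535, 1707 and 989 in lactation and 487, 1184 and 759 in control. Its highest tumour was 3.51 times its lowest, against 1.75 times for the brighter probe set, and its log2 difference was 0.343.

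Cxcl10, induced by both interferon types and by NF-kB, had signals of 916, 2469 and 1601 in lactation and 851, 1288 and 1574 in control. Lactation replicates 2 and 3 lay above all controls, replicate 3 by little, and lactation replicate 1 lay near the lowest control. Means were 1662 ± 779 against 1238 ± 364 (SD, n = 3 each). The log2 difference of 0.35 (standard error 0.37, 95% interval -0.52 to 1.23) was the largest positive one among the 6 genes. It rested on lactation replicate 2, since it was 0.014 without that tumour and 0.722 without lactation replicate 1. The interval leaves room for a rise of up to 1.23 or a fall of 0.52 on the log2 scale.

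Cxcl11, the ligand with the highest affinity for CXCR3 where it is made, had signals of 107, 231 and 244 in lactation and 159, 147 and 280 in control. The highest tumour was a control and the lowest a lactation tumour, the other way round from Cxcl9 and Cxcl10. Means were 194 ± 75.5 against 195 ± 73.3 (SD, n = 3 each), with a log2 difference of -0.03 (95% interval -0.88 to 0.81). Leaving out lactation replicate 1 turned it to 0.314, leaving out control replicate 3 turned it to 0.236, and leaving out lactation replicate 3 gave -0.225. With array weights it was 0.112. A second probe set had signals from 17.1 to 36.1 and lay below its array's median on all 6 arrays.

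Cxcr3, the shared receptor of these ligands, had signals of 294, 351 and 208 in lactation and 301, 440 and 317 in control. Lactation replicates 1 and 3 lay below all controls, and lactation replicate 2 lay within their range. Means were 284 ± 72.2 against 353 ± 76.4 (SD, n = 3 each). The log2 difference of -0.31 (standard error 0.23, 95% interval -0.84 to 0.23, unadjusted p = 0.222 in limma) was the largest in size on the lower side. Its sign was negative under each alternative run, with a value of -0.109 when lactation replicate 3 was left out, -0.142 without control replicate 2 and -0.466 when lactation replicate 2 was left out. In whole-tumour RNA, fewer receptor-bearing cells and less receptor RNA per cell cannot be told apart.

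**Figure D1:**
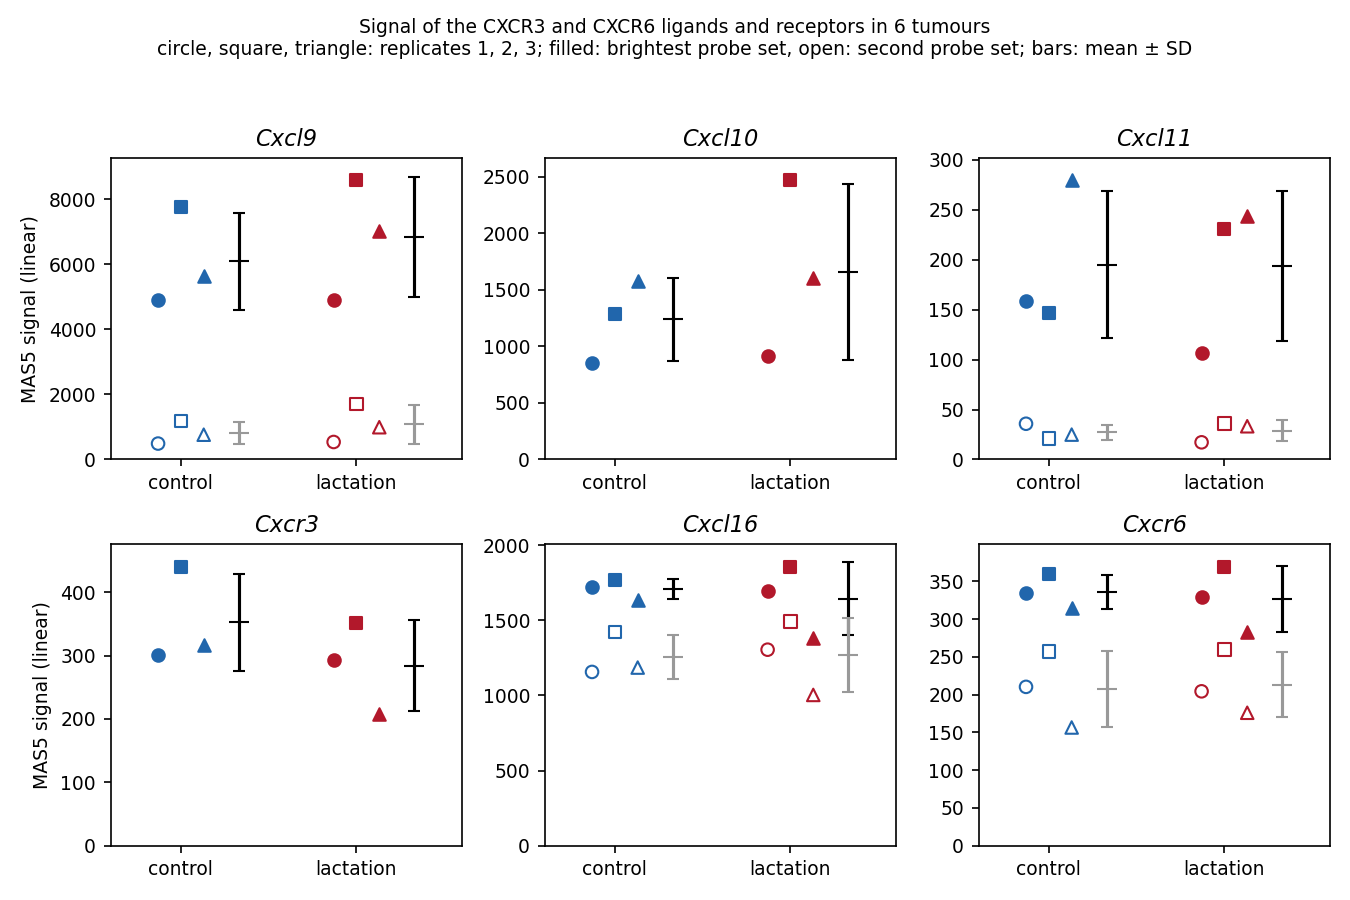
MAS5 signal on a linear axis from 0 for each gene in 3 control (blue) and 3 lactation (red) tumours, with circles, squares and triangles for replicates 1, 2 and 3, filled points for the brightest probe set, open points for a second one, and bars for the mean ± SD. The groups overlap in every panel, and Cxcl10 spreads from 851 to 2469 while Cxcr6 spreads from 282 to 370.

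Cxcl16, the membrane-bound ligand, varied little. Its signals were 1694, 1857 and 1380 in lactation and 1722, 1766 and 1637 in control. The lactation group held both the highest and the lowest tumour. Means were 1643 ± 242 against 1708 ± 65.9 (SD, n = 3 each), with a log2 difference of -0.07 (standard error 0.12, 95% interval -0.35 to 0.22). Without lactation replicate 3, the lowest tumour, the difference was 0.054. A second probe set had a log2 difference of 0.002.

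Cxcr6, its receptor, had signals of 329, 370 and 282 in lactation and 334, 360 and 315 in control. Again the lactation group held both ends of the range. Means were 327 ± 43.7 against 336 ± 22.7 (SD, n = 3 each), with a log2 difference of -0.04 (standard error 0.14, 95% interval -0.37 to 0.29). Leaving out lactation replicate 3 turned the difference to 0.052, and leaving out control replicate 2 turned it to 0.003. A second probe set had signals of 204, 260 and 176 in lactation and 210, 257 and 157 in control, a log2 difference of 0.044. By the brightest probe sets, the intervals of Cxcl16 and Cxcr6 excluded a change as large as 0.4 on the log2 scale in either direction. Those of Cxcl9, Cxcl10, Cxcl11 and Cxcr3 did not. No interval is given here for the second probe sets.

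**Figure D2:**
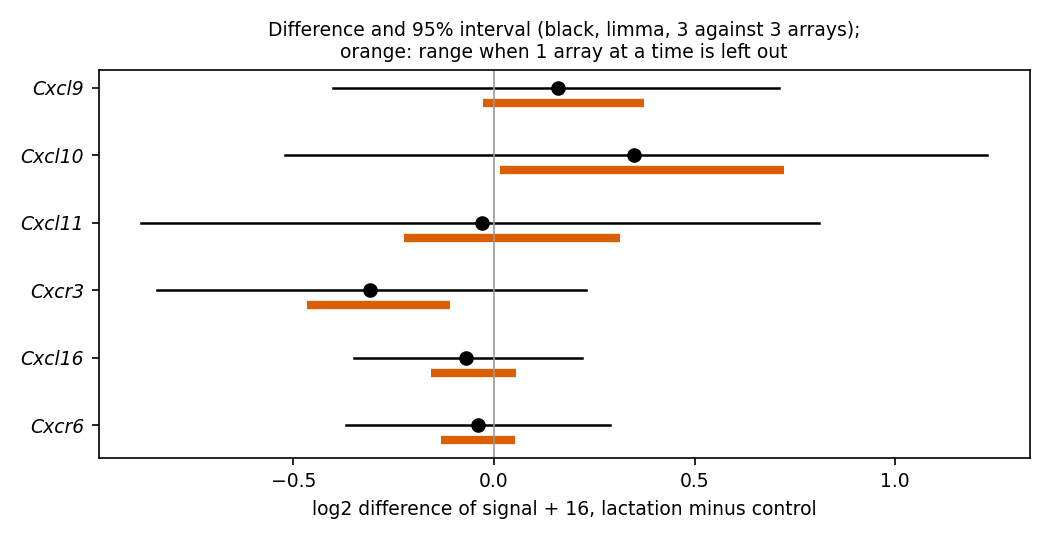
Log2 difference of signal + 16, lactation minus control, for each gene (black point) with its 95% interval from limma (black line, 3 against 3 arrays) and the range of the difference when 1 array at a time is left out (orange). Every interval crosses 0, and the orange range crosses 0 for Cxcl9, Cxcl11, Cxcl16 and Cxcr6 but not for Cxcl10 (0.014 to 0.722) or Cxcr3 (-0.466 to -0.109).

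Ligands were then set beside receptors across the 6 tumours. Of 28 pairs planned, 25 were computed and 3 were not analysed here. Only Cxcl16 with Cxcr6 passed an adjusted p of 0.05 in the exact two-sided permutation test over arrays. Pearson's r was 0.966 (exact permutation p = 0.0014, the smallest that 6 arrays allow, adjusted p = 0.035), and Spearman's rho was 1.0 (exact permutation p = 0.0028, adjusted p = 0.069). Both genes ranked lactation replicate 2 highest, then control replicate 2, control replicate 1, lactation replicate 1, control replicate 3 and lactation replicate 3. Without lactation replicates 2 and 3, the tumours farthest from the median of Cxcl16, r was 0.968, and with any 1 tumour left out r lay between 0.955 and 0.978. With arrays centred on their medians r was 0.958, and the adjusted p of 0.1 no longer passed. With the second probe set of Cxcl16 and the brightest of Cxcr6 r was 0.943 (exact permutation p = 0.0097). The relation was weaker with the second probe set of Cxcr6, where r was 0.71 or 0.793 with exact permutation p of 0.092 or 0.065 for the 2 probe sets of Cxcl16.

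**Figure D3:**
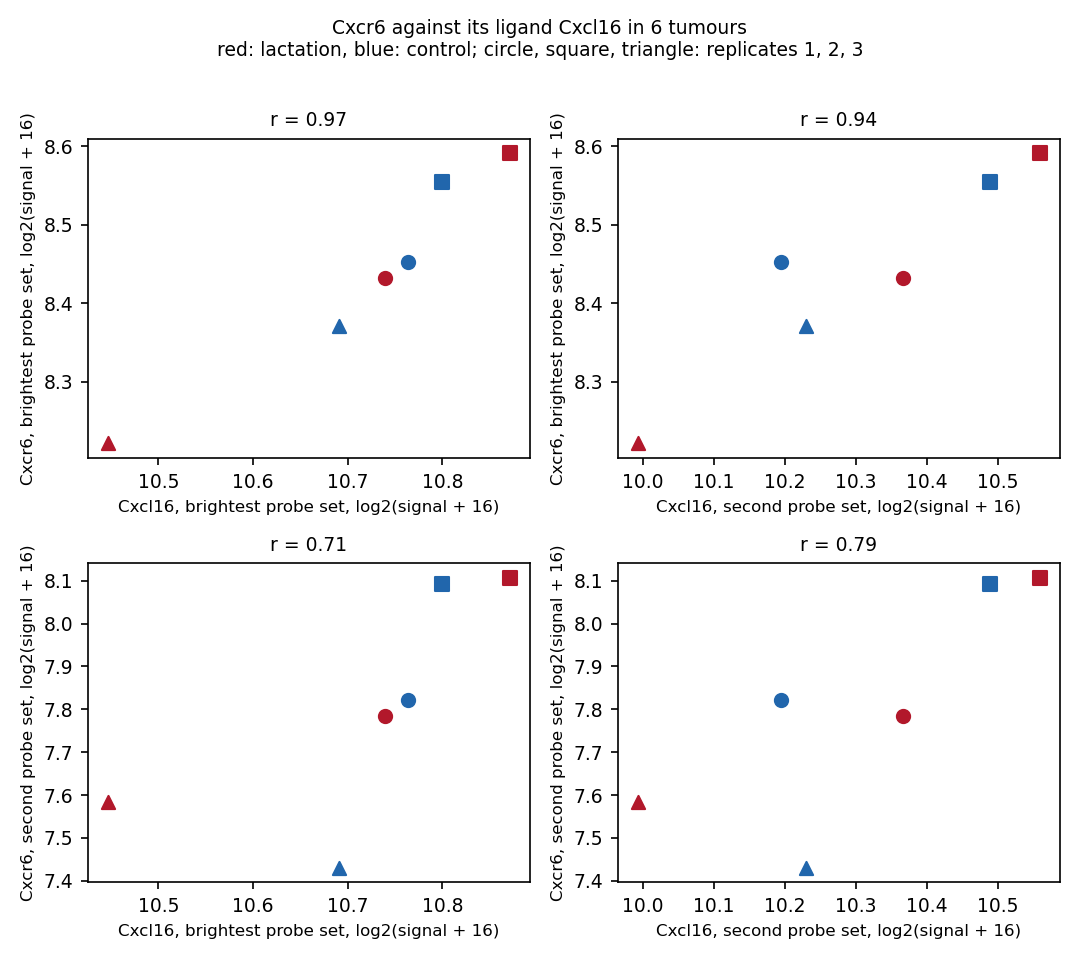
Cxcr6 against Cxcl16 on the log2(signal + 16) scale in 6 tumours, red for lactation and blue for control, with circles, squares and triangles for replicates 1, 2 and 3; each panel pairs 1 probe set of each gene. The brightest probe sets give r = 0.97 and the second probe set of Cxcr6 gives 0.71 and 0.79, over a range of under 1 log2 unit on each axis.

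A macrophage gene stood close to this ranking. Aif1, a cytoskeletal protein of macrophages, was among the 3 tested genes most like Cxcl16 (r = 0.992 over 6 arrays) and among the 3 most like Cxcr6 (r = 0.981). Its signals were 2459, 3181 and 1485 in lactation and 2574, 3019 and 2321 in control, so lactation replicate 2 was highest and lactation replicate 3 lowest there too. The summed signal of 11 macrophage and monocyte markers was also lowest in lactation replicate 3, at 43604, but did not otherwise keep the order. It was 55231 in lactation replicate 2, the highest tumour for Cxcl16, 57037 in lactation replicate 1, and 54330, 61819 and 61319 in control replicates 1 to 3. The part of macrophage content in the relation of Cxcl16 with Cxcr6 was not tested. Lrrk1 (0.994) and Pex14 (0.991) completed the 3 genes most like Cxcl16, and Dgat2 (0.982) and Cdc42se1 (0.981) those most like Cxcr6. With 6 arrays and 11622 genes such high values are common: 41 genes reached an r of at least 0.95 with Cxcl16 and 39 with Cxcr6.

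Cxcr3 also tended to rank with Cxcr6 and Cxcl16, without passing the test. Its r was 0.884 with Cxcr6 (exact permutation p = 0.026, adjusted p = 0.25) and 0.848 with Cxcl16 (exact permutation p = 0.06, adjusted p = 0.25). Spearman's rho was 0.771 for each (exact permutation p = 0.1, adjusted p = 0.37), and without lactation replicate 3 and control replicate 2 r was 0.726 and 0.719. Genes most like Cxcr3 were Alg14 (r = 0.995), Ipcef1 (0.995) and Lat (0.987), the last an adaptor of T cell receptor signalling. They were among 44 genes with an r of at least 0.95 with Cxcr3.

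Between Cxcr3 and its own ligands no relation was detected. Pearson's r was 0.3 with Cxcl9 (exact permutation p = 0.59, adjusted p = 0.77, rho 0.543 with p = 0.3), 0.062 with Cxcl10 (exact permutation p = 0.92, adjusted p = 0.95, rho 0.143 with p = 0.8) and -0.267 with Cxcl11 (exact permutation p = 0.62, adjusted p = 0.77, rho -0.086 with p = 0.92). Without the 2 arrays farthest from the ligand's median these r values were 0.216, -0.258 and -0.657. Lactation replicate 3 shows the mismatch: Cxcl9, Cxcl10 and Cxcl11 lay 0.152, 0.235 and 0.367 above their own means on the log2 scale there, and Cxcr3 lay -0.547 from its mean, its lowest value.

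Across the axes, the 6 pairs of Cxcl9, Cxcl10 or Cxcl11 with Cxcl16 or Cxcr6 had r from -0.336 to 0.335, with exact permutation p from 0.53 to 0.95 and adjusted p of at least 0.77.

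The ligands themselves went partly together. Cxcl9 with Cxcl10 gave r = 0.823 (exact permutation p = 0.05, adjusted p = 0.25, rho 0.829 with p = 0.058), and 0.537 without lactation replicate 2 and control replicate 1. Cxcl10 with Cxcl11 gave r = 0.741 (exact permutation p = 0.099, adjusted p = 0.27, rho 0.6 with p = 0.24), and 0.95 without those arrays. Cxcl9 with Cxcl11 gave r = 0.402 (exact permutation p = 0.42, adjusted p = 0.77, rho 0.2 with p = 0.71), and 0.247 without them. None of these passed. Sectm1a and Parp11 were among the 3 genes most like Cxcl10, with r = 0.985 and 0.98, beside the zinc transporter Slc39a1 with 0.997. Celf4 (0.996), Cenpf (0.989) and Cdk19 (0.976) were those most like Cxcl9, and Abi3bp (0.993), Lysmd3 (0.99) and Eps15l1 (0.989) those most like Cxcl11.

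**Figure D4:**
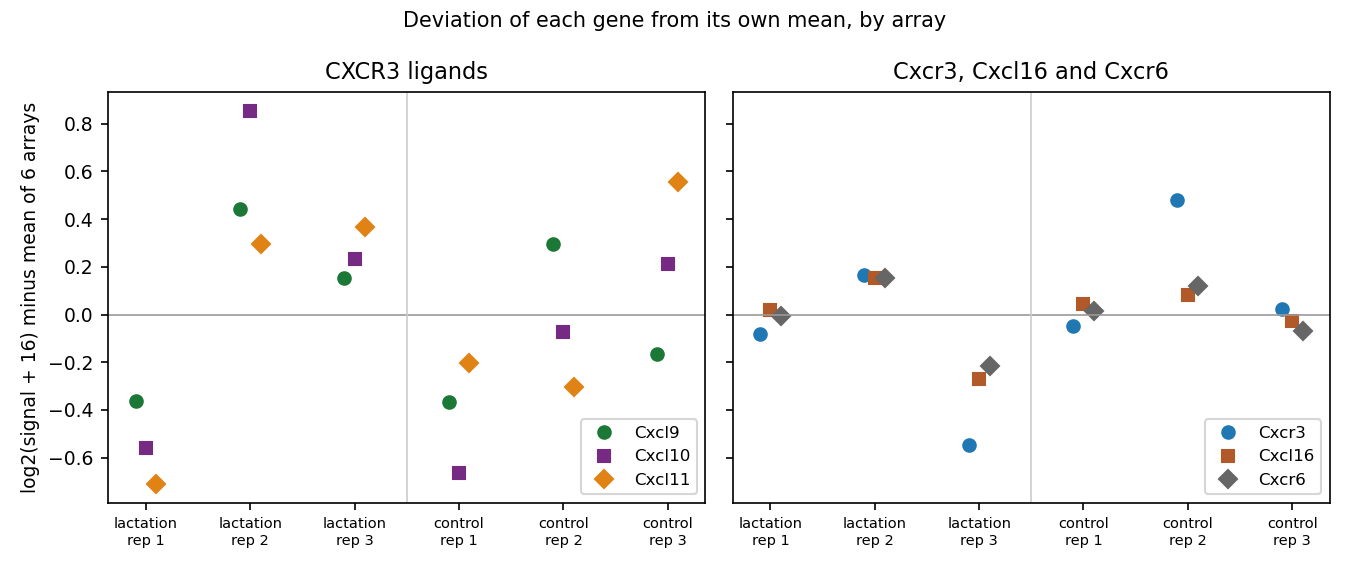
Deviation of log2(signal + 16) from each gene's own mean over 6 arrays, for the CXCR3 ligands (left) and for Cxcr3, Cxcl16 and Cxcr6 (right), by array. Ligands lie below their means in lactation replicate 1 and control replicate 1 and above them in lactation replicates 2 and 3, while Cxcr3, Cxcl16 and Cxcr6 lie lowest in lactation replicate 3 (-0.547, -0.272 and -0.216).

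Lactation replicate 2 was the highest tumour for Cxcl9, Cxcl10, Cxcl16 and Cxcr6. It was also the tumour with casein signal: Csn2, a milk casein named after its values were seen, had 333 there and between 1.96 and 27 in the others. The summed signal of 8 mammary and milk genes was 1280 in that tumour, from 162 to 255 in the other lactation tumours and from 192 to 248 in control. All 8 lay below the level filter. Of the rest, all named after their values were seen, Csn1s1 and Csn3 had 359 and 396 in that tumour. Csn1s2a, Lalba and Elf5 were also highest there, at 37.7, 57 and 26.9. Wap and Lao1 were not, at 46.3 and 24.1 against 70.3 and 55.9 in control replicate 2. The part of mammary tissue in the levels of that tumour was not tested. The differences of Cxcl9 and Cxcl10 without that tumour are given above. Those of Cxcl16 and Cxcr6 without it were -0.158 and -0.133.

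The inducers of the CXCR3 ligands had 13 positive and 5 negative differences among 18 tested genes, with a median of 0.05 against -0.005 for all tested genes, and none passed the adjusted test. Irf1, a transcription factor of the interferon gamma response, had 3571, 5134 and 4915 in lactation and 3139, 3621 and 3412 in control. Its log2 difference was 0.40 (standard error 0.15, unadjusted p = 0.0269, limma adjusted p = 1). Ifng itself lay below the level filter, at 49.9, 73.6 and 80 in lactation and 29, 79.9 and 60.6 in control, with a difference of 0.26 in the fit with no filter and -0.051 without control replicate 1. Groups did not overlap for 3 of the 18, each with lactation higher, where 6.91% of all tested genes had such groups and 3.72% with lactation higher. They were Tnf, the inflammatory cytokine, and, named after their values were seen, Jak2, a receptor-bound kinase, and Irf9, a subunit of the complex that binds interferon-stimulated response elements. Tnf differed by 0.96, or 0.279 without control replicate 2, and Jak2 and Irf9 by 0.15 and 0.16. Jak2 was 0.081 when its probe sets were averaged, and Irf9 was 0.103 without lactation replicate 2. Stat2, the partner of Irf9, differed by 0.32, or 0.106 without lactation replicate 2.

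Cxcl9 followed Ifng over the tumours with r = 0.826 (exact permutation p = 0.033, adjusted p = 0.25, rho 0.771 with p = 0.1) and Irf1 with r = 0.761 (exact permutation p = 0.096, adjusted p = 0.27, rho 0.886 with p = 0.033). Without lactation replicate 2 and control replicate 1 these values were 0.978 and 0.441. Cxcl10 gave r = 0.734 with Ifng (exact permutation p = 0.099, adjusted p = 0.27, rho 0.714 with p = 0.14) and 0.801 with Irf1 (exact permutation p = 0.053, adjusted p = 0.25, rho 0.829 with p = 0.058), and 0.659 and 0.422 without those arrays. Cxcl11 gave 0.388 with Ifng (exact permutation p = 0.47, adjusted p = 0.77, rho 0.314 with p = 0.56) and 0.449 with Irf1 (exact permutation p = 0.36, adjusted p = 0.77, rho 0.086 with p = 0.92). Without lactation replicate 1 and control replicate 3 those were 0.438 and 0.92. None of the 6 relations passed the adjusted test.

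Among 13 tested genes of a list of other interferon gamma responses, all 13 differences were positive with a median of 0.39. That median was above the differences of Cxcl9 (0.16), Cxcl10 (0.35) and Cxcl11 (-0.03). None of the 13 genes passed the adjusted test. The summed signal of the 14 listed genes with a probe set was 66232, 96832 and 88084 in lactation replicates 1 to 3. In control replicates 1 to 3 it was 64315, 73726 and 67686, so lactation replicate 1 lay below control replicates 2 and 3. The list held Ido1 (0.65), Igtp (0.44) and Tap1 (0.42). Psmb8, an immunoproteasome subunit named after its values were seen, was the only one of the 13 whose groups did not overlap, at 3885, 3991 and 3431 in lactation and 2752, 3228 and 2902 in control. Psmb8 and, likewise named after their values were seen, Psmb9 and Irgm1 had unadjusted p of 0.00805, 0.041 and 0.0253 in limma, with differences of 0.35, 0.40 and 0.40. They were the only 3 of the 13 with an unadjusted p under 0.05. Of all tested genes, 1.51% had such a p with lactation higher, and 3.72% had groups that did not overlap with lactation higher. Without lactation replicate 2 the difference of Ido1 was 0.377, that of Igtp 0.285 and that of Tap1 0.223. Ido1 was 0.278 without control replicate 1 and 1.247 without lactation replicate 1.

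Genes that cleave or bind these chemokines showed no call, with 6 positive and 5 negative differences among 11 tested, a median of 0.03 and 0 with groups that did not overlap. Adam10, the protease mainly responsible for steady release of CXCL16, differed by 0.11, by -0.28 when its probe sets were averaged, and by 0.004 without lactation replicate 2. Adam17, which releases it on stimulation, differed by -0.03. Dpp4, whose peptidase trims CXCL9, CXCL10 and CXCL11, differed by 0.03, and by -0.255 without control replicate 1 or -0.043 without lactation replicate 2. It was -0.018 with arrays centred on their medians. Ackr3, a scavenging receptor for CXCL11 and CXCL12, had 2594, 2754 and 3182 in lactation and 4177, 3173 and 3032 in control, a difference of -0.27, or -0.13 without control replicate 1. The gelatinase Mmp9 differed by -0.28, or 0.011 without control replicate 3, and the heparan sulfate proteoglycan Sdc1 by 0.20, or 0.056 without control replicate 2.

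Other CXC chemokines had 7 positive and 4 negative differences among 11 tested genes, with a median of 0.24 and 0 past the adjusted test. The neutrophil chemokine Cxcl5 was the only one whose groups did not overlap (difference 0.82, limma adjusted p = 1). Of all tested genes, 3.72% had such groups with lactation higher. Cxcl15 had the largest difference, -1.50, with 413, 157 and 180 in lactation and 1249, 658 and 372 in control. Cxcl3, another neutrophil chemokine, differed by 0.60, or 0.379 without control replicate 3. Pf4, a platelet chemokine that can bind CXCR3, had 1888, 1869 and 1354 in lactation and 1619, 2015 and 2413 in control, a difference of -0.24. Without lactation replicate 3 it was -0.082. Cxcl12 differed by 0.25, or -0.249 without control replicate 1. Its receptor Cxcr4 had 985, 1172 and 1145 in lactation and 1130, 1649 and 1762 in control, a difference of -0.43 (unadjusted p = 0.0434, limma adjusted p = 1). Of 8 tested chemokine receptors outside the CXCR3 and CXCR6 axes, 3 differences were positive and 5 negative, with a median of -0.31 and 0 without overlap. Xcr1, of cross-presenting dendritic cells, differed by -0.41 and Cxcr2, of neutrophils, by -0.39. Without lactation replicate 3 these were -0.185 and -0.183.

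**Figure D5:**
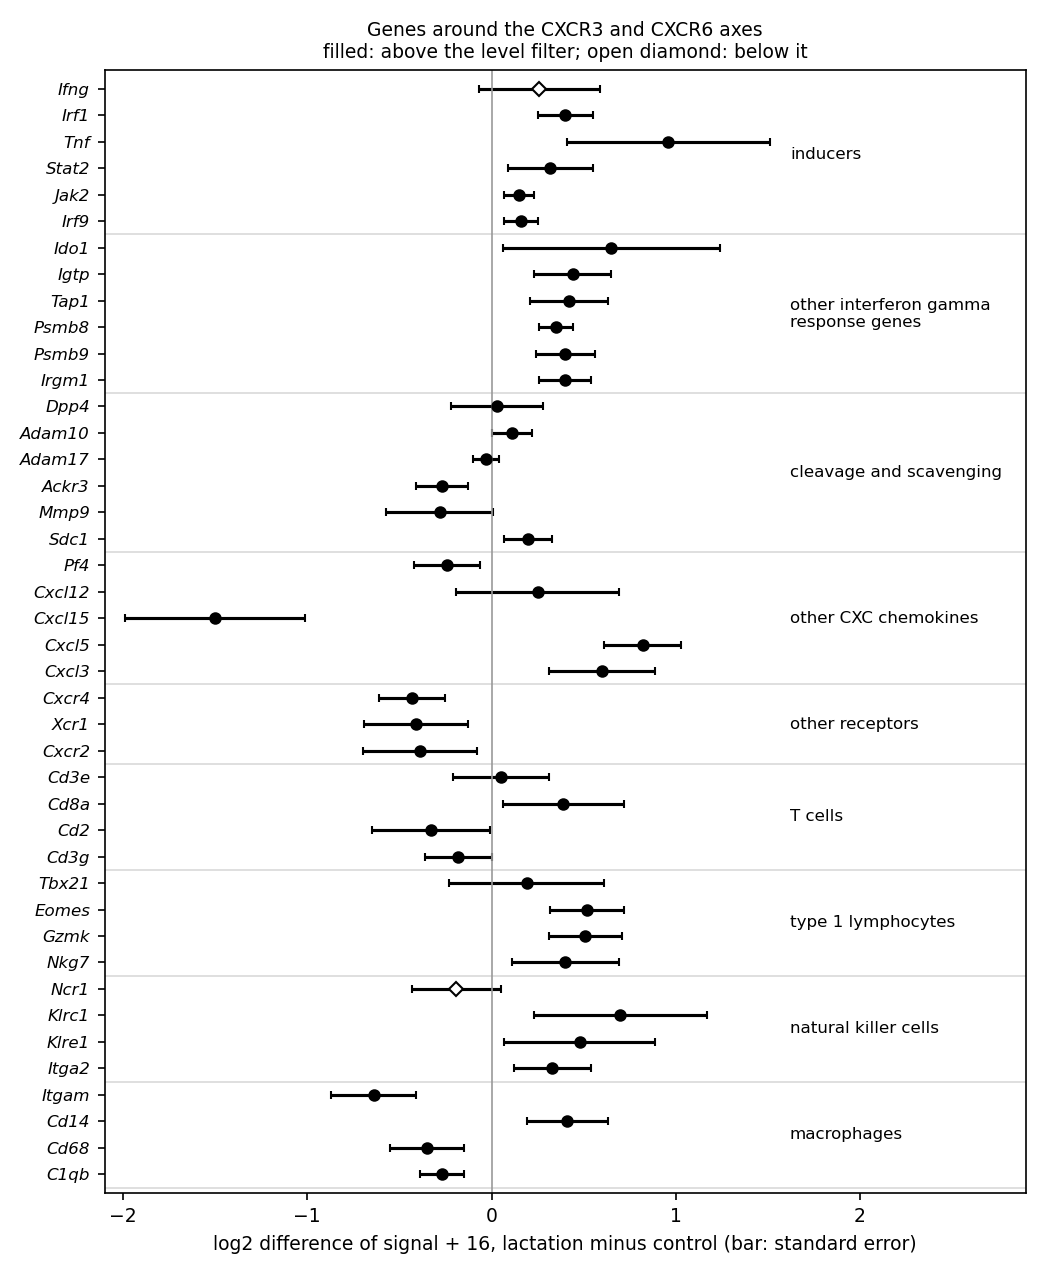
Log2 difference of signal + 16, lactation minus control, with its standard error, for named genes around the CXCR3 and CXCR6 axes, grouped by role; filled points passed the level filter and open diamonds did not. None passed the adjusted test; Cxcl15 lies lowest at -1.50 and Tnf highest at 0.96.

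Markers of the cells that carry CXCR3 and CXCR6 gave no common direction. T cell markers had 4 positive and 7 negative differences among 11 tested, with a median of -0.09, and their summed signal ran from 2663 to 3136 in lactation and from 2528 to 3813 in control. Cd3e, a chain of the T cell receptor complex, had 128, 167 and 167 in lactation and 140, 209 and 107 in control, and Cd8a, the coreceptor of cytotoxic T cells, had 238, 214 and 203 against 208, 232 and 87.2. The difference of Cd3e was 0.05 and turned to -0.149 without control replicate 3, and to -0.007 and -0.005 when lactation replicate 2 or 3 was left out. With array weights it was -0.066. That of Cd8a was 0.39, and -0.008 without the same tumour. Cd2 differed by -0.33 and Cd3g by -0.18, and without control replicate 2 these were 0.004 and -0.006.

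Over all 6 tumours, no relation of Cxcr3 or Cxcr6 with Cd3e or Cd8a was detected. Other T cell markers were not among the planned pairs. Lat (r = 0.987) was 1 of 44 genes with an r of at least 0.95 with Cxcr3, and was named by that likeness alone. Cxcr3 gave r = 0.328 with Cd3e (exact permutation p = 0.55, adjusted p = 0.77, rho 0.486 with p = 0.36) and 0.062 with Cd8a (exact permutation p = 0.81, adjusted p = 0.92, rho 0.2 with p = 0.71). Cxcr6 gave r = 0.352 with Cd3e (exact permutation p = 0.5, adjusted p = 0.77, rho 0.6 with p = 0.24) and 0.316 with Cd8a (exact permutation p = 0.53, adjusted p = 0.77, rho 0.543 with p = 0.3). Without the 2 arrays farthest from the receptor's median these r values were 0.563, -0.099, 0.995 and 0.725.

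Type 1 lymphocyte and cytotoxic genes had 7 positive and 5 negative differences among 12 tested, with a median of 0.07. Of all tested genes, 3.72% had groups that did not overlap with lactation higher. Among the 12, Eomes, a transcription factor of effector and memory lymphocytes, was the only one whose groups did not overlap, at 345, 387 and 545 in lactation and 246, 328 and 292 in control (difference 0.52, unadjusted p = 0.0337, limma adjusted p = 1). It was 0.334 without lactation replicate 3 and 0.338 when its probe sets were averaged. Tbx21, the factor that drives Cxcr3 in lymphocytes, had 119, 190 and 90.5 against 111, 195 and 58.9, a difference of 0.19. That turned to -0.188 without control replicate 3, -0.073 when lactation replicate 2 was left out and -0.08 with array weights. The granzyme Gzmk differed by 0.51 and the granule gene Nkg7 by 0.40, or 0.111 without control replicate 3. Natural killer and innate lymphocyte markers had 6 positive differences among 6 tested, with a median of 0.27 and 0 without overlap, led by the receptor genes Klrc1 (0.70) and Klre1 (0.48) and the integrin Itga2 (0.33). The differences of Klrk1 (0.00) and Klrd1 (0.04), named after their values were seen, lay near 0. Without lactation replicate 3 the difference of Klrc1 was 0.14 and that of Itga2 0.214, and without control replicate 3 that of Klre1 was 0.099. Ncr1, the defining activating receptor of natural killer cells, lay below the level filter and differed by -0.19 in the fit with no filter. Zbtb16 and Klra8, named after their values were seen, also lay below it and differed by -0.23 and 0.68 in that fit.

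Among the cells that make the ligands, macrophage and monocyte markers had 10 negative differences among 11 tested, with a median of -0.26. Of all tested genes, 3.19% had groups that did not overlap with lactation lower. In this list groups did not overlap for the integrin Itgam (-0.64) and, named after its values were seen, the complement chain C1qb (-0.27), which was -0.136 without lactation replicate 3. Cd68 differed by -0.35, or -0.132 without that tumour, and Cd14 by 0.41. Dendritic cell markers had 9 negative among 11 with a median of -0.13, with Flt3 at -0.34 and Batf3 at -0.25 beside Xcr1. Without lactation replicate 3 Flt3 was 0.066, and without control replicate 2 Batf3 was -0.05.

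The tumour and its other cells were read the same way. Tumour epithelial markers had 10 positive differences among 10 with a median of 0.24, led by Tspan8 (0.64), Muc1 (0.60) and Cldn4 (0.55). Tspan8 was 0.295 without lactation replicate 3, Muc1 was 0.336 without control replicate 3, and Cldn4 was 0.249 without control replicate 2. The epithelial markers summed to between 75174 and 105612 in lactation and between 70277 and 88579 in control, so epithelial signal was high in all 6 tumours. Fibroblast markers had 8 negative among 10 with a median of -0.07, led by the growth factor receptors Pdgfrb (-0.43) and Pdgfra (-0.36) and by Fap (-0.23). Without control replicate 3 Pdgfrb was -0.254 and Fap -0.007, without control replicate 1 Fap was -0.505, and without lactation replicate 3 Pdgfra was -0.17. Endothelial markers had 7 negative among 8 with a median of -0.15. Vwf, the von Willebrand factor gene, differed by -0.32 and its groups did not overlap, as for 3.19% of all tested genes with lactation lower. Emcn differed by -0.29 and Cdh5 by -0.23. Without control replicate 3 Vwf was -0.238, Emcn -0.084 and Cdh5 0.024.

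Of 7 B cell and plasma cell markers with a probe set, 4 were tested and 3 lay below the level filter. The 4 tested, Ighm, Jchain, Mzb1 and Sdc1, the last named above as a proteoglycan, had positive differences with a median of 0.56. Which cells gave each of these signals was not tested. Below the filter, in the fit with no filter, the B cell receptor chains Cd79a and Cd79b were at -0.56 and -0.36 and the B cell surface gene Ms4a1 at 0.59, all 3 named after their values were seen. Ighm, an antibody heavy chain, differed by 1.29 (unadjusted p = 0.03, limma adjusted p = 1), Jchain by 0.72 and Mzb1 by 0.39. Ighm was 0.632 when its probe sets were averaged. Without control replicate 1 Jchain was 0.323 and Mzb1 0.228, and without control replicate 3 they were 1.233 and 0.626. Muscle and skin markers had 4 positive among 7 with a median of 0.23 and summed to between 19070 and 65149 in lactation and between 15988 and 62471 in control. Myh4 differed by 0.67, Ckm by 0.35 and Myh1 by -0.35. Each of these 3 muscle genes changed sign in some fits. Without lactation replicate 1 Myh4 was -0.141 and Ckm -0.425, without control replicate 3 they were -0.453 and -0.542, and Myh1 was 0.308 without lactation replicate 3 and 0.247 without control replicate 2. With array weights Myh4 was -0.128 and Ckm -0.286. None of the genes of these lists passed the adjusted test, and the part of cell content in the ligand and receptor levels was not tested.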

How the data were processed

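Biotin-labelled cRNA of 6 tumours was made by the Affymetrix protocol and read on arrays, per the labels' protocols. The deposited intensity values are linear MAS5 signals, per the submitters' processing notes (version not given in the sources used here), with a 2% trimmed mean of 500 on every array and medians from 99.3 to 111. The number of arrays limits the precision. Detection calls and scanner files were not used here. Symbols came from the platform annotation, which can be old, checked by Entrez identifier against RefSeq (34754 of 34958 probe sets matched, 0 symbols changed). 932 probe sets with several genes and 9211 with none were left out.

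Each gene was its probe set of highest mean, on the log2(signal + 16) scale, which understates changes of dim genes. Genes with at least 3 of 6 arrays at or above the array median were kept (11622 of 18194), and all 6 genes described passed. limma 3.58.1 in R 4.3.3 (lmFit, eBayes with trend) fitted group alone with Benjamini-Hochberg adjustment at 0.05, and was tested on simulated data. Correlations used exact permutation over 720 orders, Python 3.11.15 and scipy 1.17.1, adjusted over 25 pairs. The members and lists were chosen with earlier results of these data known. Named were the 6 genes, the 3 largest differences of each list, a fixed set of pathway genes, and the 3 genes most correlated with each of the 6. Lists were described by counts and medians, with no set test. Genes outside that rule are said to be named after their values were seen. Alternatives were other scalings, added constants, filters, probe set rules and variance models, a replicate block, and leaving out each array.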

Additional observations from a re-analysis of the deposited data

How the results depend on the processing

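Over 104 alternative fits of the 6 chemokine and receptor genes, 97 kept the direction and 7 reversed it, and none made or ended a call. Other filters, each probe set as its own row, no trend, robust eBayes and the replicate block cannot change a difference. Those fits kept the direction by design and bear only on the calls. No gene of all those tested passed an adjusted p of 0.05 in limma under any alternative, with between 138 and 651 at an unadjusted p under 0.05, the lowest without lactation replicate 3 and the highest without control replicate 1. With array weights the difference of Cxcl11 was 0.112. Leaving out 1 array at a time gave ranges of -0.027 to 0.375 for Cxcl9, 0.014 to 0.722 for Cxcl10, -0.225 to 0.314 for Cxcl11, -0.466 to -0.109 for Cxcr3, -0.158 to 0.054 for Cxcl16 and -0.133 to 0.052 for Cxcr6. The cause of these reversals was not tested. Cxcl11 had no value with a filter at the 70th percentile or with its probe sets averaged, where it fell below the filter, and Cxcr3 and Cxcr6 had none at the 70th percentile. Same-numbered tumours deviated from their group means with correlations of 0.143, -0.084 and 0.268. Tumours of different numbers gave -0.473 to 0.46, a range that held all of these, so the numbers were not taken to pair them. With the replicate block the differences of 0.156 for Cxcl9, 0.353 for Cxcl10 and -0.306 for Cxcr3 stayed the same by design. Each group holds every replicate number, so the block can change only the error. The block changed no call.

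Of 1039 alternative values for 59 of the other named genes, 27 reversed the direction. That total likewise counts the fits that cannot change a difference. Dpp4 was -0.018 with arrays centred on their medians and -0.005 with array weights, Adam10 was -0.28 when its probe sets were averaged, and with array weights Cd3e was -0.066, Tbx21 -0.08, Myh4 -0.128 and Ckm -0.286. With 1 array left out the ranges were -0.051 to 0.495 for Ifng, -0.255 to 0.212 for Dpp4, -0.558 to 0.011 for Mmp9, -0.249 to 0.729 for Cxcl12, -0.149 to 0.288 for Cd3e, -0.008 to 0.624 for Cd8a, -0.521 to 0.004 for Cd2, -0.188 to 0.559 for Tbx21, -0.585 to 0.066 for Flt3, -0.405 to 0.024 for Cdh5, -0.453 to 1.769 for Myh4, -0.542 to 1.235 for Ckm and -0.9 to 0.308 for Myh1. The count of correlated pairs past the adjusted test, 1 with all arrays, was 0 with arrays centred on their medians and 0 with any 1 array left out, where the smallest adjusted p was 0.1 and so few arrays cannot bring a single pair past the threshold. The probe set pairs of Cxcl16 and Cxcr6 were added after seeing the data.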
